A study of Mus musculus with 8 samples.

Results

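The 9 genes described here encode the subunits of cohesin, the ring-shaped complex that holds sister chromatids together. They were chosen by name: 4 are meiosis-specific (Smc1b, Rec8, Rad21l and Stag3) and 5 are general (Smc1a, Smc3, Rad21, Stag1 and Stag2). All 9 were found among 23694 named genes in the female table and 23409 in the male table, and all 9 passed the filter for testing, a mean of at least 1 FPKM (fragments per kilobase of transcript, scaled to library size), with 11529 and 12279 genes tested in all. RNA-Seq had been carried out on E15.5 germ cells sorted by an Oct4-EGFP transgene, which every group carries, and each sex had 2 control and 2 Snf5 CKO libraries, 8 in all. The CKO embryos were Snf5 fx/Δ with TNAP-Cre, in which Cre is expressed from the Alpl locus in primordial germ cells. There the floxed exon of Snf5 (Smarcb1), which encodes a core component of SWI/SNF chromatin remodellers, is removed. Recombination does not reach every germ cell in this model. The controls were a pool of Snf5 fx/+, Snf5 fx/Δ, and Snf5 fx/+ carrying TNAP-Cre, so that some control cells had 1 deleted allele or Cre. The labels give the strain as C57BL/6, and the study describes a mixed background. Each library was described as a biological duplicate.

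A cohesin ring is built from a pair of SMC proteins, SMC1 and SMC3, closed by a kleisin, to which a SA/STAG protein is bound. In mitotic cells the ring holds SMC1A, SMC3, RAD21, and STAG1 or STAG2. In meiotic prophase, germ cells add SMC1B in place of SMC1A, REC8 or RAD21L in place of RAD21, and STAG3 in place of STAG1 or STAG2, and these rings form the core of the chromosome axis. Female germ cells enter meiotic prophase in the fetal ovary, whereas male germ cells stop dividing in the fetal testis and enter meiosis only after birth.

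In female Snf5 CKO germ cells, Smc1b, Rad21l and Stag3 fell and Rec8 rose, while among general subunits Rad21 and Smc1a rose and Smc3 fell. In male Snf5 CKO germ cells, Rad21l fell and Rec8 rose. Across all tested genes, 21.6% of female genes were called lower and 17.3% higher in Snf5 CKO, and 17.4% and 14.4% of male genes, where a call needs an adjusted p under 0.05 and a log2 fold change of 1 or more in size. In females 3 of the 4 meiosis-specific subunits were called lower and 1 higher, and of the 5 general subunits 0 were called lower and 1 higher. In males 1 of the 4 meiosis-specific subunits was called lower and 1 higher, and 0 of the 5 general subunits were called in either direction. Of these 5, 1 (Rad21) had an unadjusted p under 0.05 in limma, as had 6734 of the 12279 tested male genes. At an adjusted p under 0.05 with no limit on size, which is what "rose" and "fell" mean here, 1 general subunit fell and 2 rose in females, where 34.6% of tested genes fell and 26.9% rose, and 0 did in males, where 25.3% fell and 21.0% rose. With the replicate number as a block, 3 of the 5 general subunits fell in males (Smc3, Rad21 and Stag2). The share of all tested genes passing with the block is not given, so this count has no background beside it. Among the 16 cohesin regulators tested in males, described below, 6 fell and 8 rose with the block, against 3 and 6 without it. The median log2 fold change of the meiosis-specific subunits was -2.21 in females and -0.22 in males, that of the general subunits was -0.13 and -0.28, and that of all tested genes was -0.13 and -0.072.

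**Figure D1:**
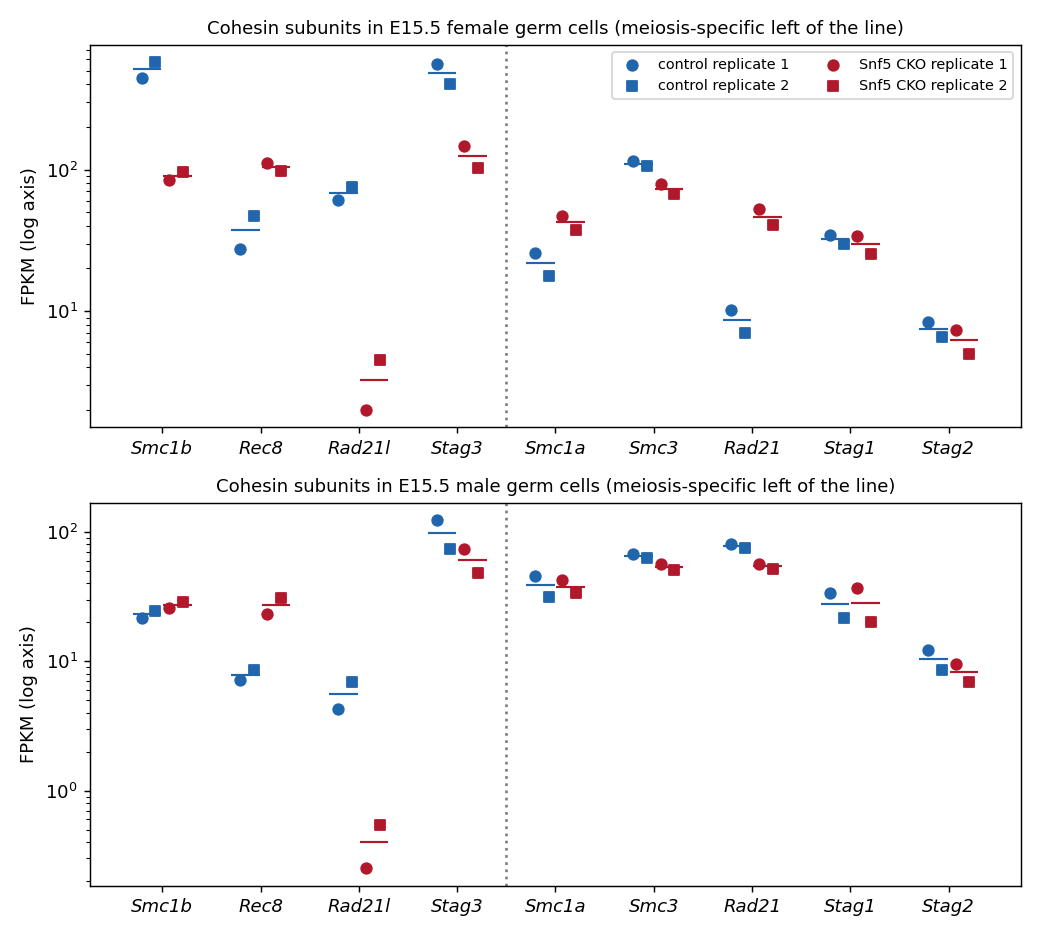
FPKM of each subunit in the 4 female libraries (top) and the 4 male libraries (bottom), on a log axis. Circles are replicate 1 and squares replicate 2, blue is control and red is Snf5 CKO, and short bars are the means of 2 libraries. In females the red points of Smc1b, Rad21l, Stag3 and Smc3 lie below the blue ones and those of Rec8, Rad21 and Smc1a above.

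The sorted cells carried germ cell markers, and the targeted gene was low in every CKO library. Smarcb1 was at 23.4 and 22.3 FPKM in female controls and at 4.24 and 2.47 in female Snf5 CKO, and at 141 and 167 in male controls, against 8.73 and 10.1 in male Snf5 CKO. Pou5f1 (Oct4), whose promoter drives the sorting reporter, was at 8.63 and 16.7 FPKM in female controls and at 295 and 333 in female Snf5 CKO, a log2 rise of 4.59 ± 0.29 (SE, adjusted p = 0.0001). In males it was at 399 and 436 in controls and 620.4 and 648 in Snf5 CKO. The other 5 germ cell markers summed to 1822 and 1834 FPKM in female controls and 1227 and 1154 in female Snf5 CKO, and to 2846 and 2876 and to 1551 and 1382 in the male groups, so the germ cell markers themselves moved with the genotype. Mael and Tdrd1, factors of transposon silencing, fell in both sexes (log2 changes of -1.94 in females and -2.97 in males for Mael, and of -1.89 and -3.91 for Tdrd1), and Dnd1, an RNA-binding protein of germ cells, rose by 4.39 in females and fell by 1.78 in males. Ddx4, a germ cell helicase, lay between 203 and 363 FPKM in the female libraries and between 237 and 565 in the male libraries, where it fell by 0.93. Markers of supporting cells moved with the genotype: the summed FPKM of 5 Sertoli cell genes was 62.2 and 57.7 in male controls, against 246 and 434 in male Snf5 CKO (5 of 5 rose, Amh from 17.3 and 16.5 to 69.7 and 119.5), and that of 5 pre-granulosa cell genes was 5.54 and 8.64 in female controls and 23.3 and 22.6 in female Snf5 CKO (5 of 5 rose, Foxl2 from 0.328 and 1.13 to 1.67 and 2.07). The 5 Leydig cell genes summed to 85.7 and 58.2 FPKM in male controls and to 19.2 and 15.1 after deletion, and 5 stromal genes to 14.2 and 6.99 and to 2.74 and 1.71. In females the 5 Leydig cell genes summed to 4.74 and 4.89 FPKM in controls and 12.0 and 11.8 in Snf5 CKO, where Insl3, tabled as 1 locus with Jak3, rose by 1.18, the stromal gene Col1a1 fell by 1.11, and the Sertoli cell sum was between 0.168 and 1.58. The pre-granulosa sum in males was 5.96 and 6.76 FPKM in controls and 27.8 and 30.3 in Snf5 CKO, with Amhr2 up by 2.54. The blood and endothelial sums of the groups overlapped in each sex, while their member Pecam1, which is also expressed in early germ cells, rose in females from 4.10 and 3.65 FPKM to 24.3 and 19.7. The part of these other cells, and of the shift in germ cell markers, in the changes of cohesin genes was not tested. In a sorted bulk sample, fewer cells that express a gene and less RNA per cell cannot be told apart.

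Promoter sequence is shown for Smc1b and Stag3, which fell together in females, and for Rec8, which rose in both sexes. The lines give the 250 bases before the RefSeq start on GRCm38.p6, 5′ to 3′ on the strand of the gene, from chr15:85131958-85132207 (minus strand) for Smc1b, chr5:138280259-138280508 (plus strand) for Stag3 and chr14:55617916-55618165 (plus strand) for Rec8. Capitals mark matches to an E2F-type motif (TTCCCGC, either strand) or an E-box (CACGTG, a palindrome), 2 motifs chosen after the windows had been seen. E2F6 is known to keep Smc1b and Stag3 silent in somatic cells.
Smc1b: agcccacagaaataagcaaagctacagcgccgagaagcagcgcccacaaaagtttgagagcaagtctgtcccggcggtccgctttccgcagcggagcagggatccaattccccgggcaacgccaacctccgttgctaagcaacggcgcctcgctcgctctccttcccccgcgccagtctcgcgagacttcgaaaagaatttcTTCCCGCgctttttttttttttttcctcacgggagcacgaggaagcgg
Stag3: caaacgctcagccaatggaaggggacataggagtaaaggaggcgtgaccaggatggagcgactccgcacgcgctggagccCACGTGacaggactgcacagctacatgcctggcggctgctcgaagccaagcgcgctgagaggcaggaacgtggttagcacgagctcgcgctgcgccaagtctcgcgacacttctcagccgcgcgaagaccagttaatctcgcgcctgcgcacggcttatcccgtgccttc
Rec8: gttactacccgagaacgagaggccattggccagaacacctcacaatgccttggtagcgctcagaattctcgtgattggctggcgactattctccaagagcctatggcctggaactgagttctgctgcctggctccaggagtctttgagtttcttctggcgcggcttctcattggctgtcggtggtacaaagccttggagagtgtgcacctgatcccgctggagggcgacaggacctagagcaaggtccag
The Smc1b window held 1 E2F-type match, 48 bases before the start, and no E-box. The Stag3 window held 1 E-box, 170 bases before the start, and no E2F-type match, and the Rec8 window held neither. Of 32851 promoter windows of the same length, 3.82% held the E2F-type motif and 6.02% the E-box. Windows were matched for 7 of the 9 subunits. The Rad21l window held neither motif and is not printed, because its RefSeq start lies inside the locus of the tables. Among the general subunits, Stag1 held 1 E2F-type match, and Smc1a and Smc3 held neither motif. The Stag1 and Smc1a windows also lie inside the female locus of their gene, and the Smc3 window lies partly inside it. The Smc1b window lies partly inside the male locus of Smc1b, which covers its E2F-type match.

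Smc1b (chr15:85064689-85131957 in the female table, mm10) encodes the meiotic SMC1 that holds chromatids together along the axis. Its level was 445 and 576 FPKM in female controls and 84.7 and 96.4 in female Snf5 CKO. Both CKO libraries thus lay below both controls, as they did for 45.1% of tested female genes. The mean fell from 511 ± 92.2 to 90.5 ± 8.32 FPKM (SD, n = 2), a log2 fold change of -2.47 ± 0.22 (SE, limma on log2 of FPKM + 1, adjusted p = 0.000209). In males Smc1b was at 21.8 and 24.7 FPKM in controls and 25.7 and 28.8 in Snf5 CKO. Both male CKO libraries lay above both controls, as they did for 34.5% of tested male genes. The log2 difference of 0.22 ± 0.17 did not pass the test (adjusted p = 0.338, or 0.0341 with the replicate number as a block). The genotype effect differed between the sexes by -2.70 ± 0.25 on the log2 scale, female minus male (adjusted p = 0.000389).

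Smc1a (chrX:152004583-152061973 in the female table), the SMC1 of mitotic cohesin, was at 25.7 and 17.8 FPKM in female controls and at 47.3 and 37.5 in female Snf5 CKO. Both CKO libraries lay above both controls, as they did for 36.4% of tested female genes. The log2 rise was 0.94 ± 0.23 (adjusted p = 0.0105), below the size needed for a call. In males its level was 45.6 and 31.6 FPKM in controls and 42.3 and 33.5 in Snf5 CKO, and the groups overlapped (adjusted p = 0.968). The difference between the sexes was 0.96 ± 0.36 (adjusted p = 0.0646, or 0.000462 with the replicate block). In the female table Smc1a and Ribc1 are listed with the same locus, and Ribc1 was at 43.5 and 29.7 FPKM in controls and 11.8 and 12.5 in Snf5 CKO, so the division of fragments between them is uncertain.

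Within a library the FPKM of Smc1b and Smc1a can be set against each other, because FPKM is per length and the share does not depend on the scaling of the library. Smc1b held 94.5% and 97.0% of the SMC1 FPKM in female controls and 64.2% and 72.0% in female Snf5 CKO. It held 32.3% and 43.9% in male controls, against 37.8% and 46.3% in male Snf5 CKO. The female shares of the groups lay apart by more than their spread, and the male shares overlapped. The summed SMC1 level was 532 ± 86.6 FPKM in female controls and 133 ± 1.42 in female Snf5 CKO (SD, n = 2), and 61.8 ± 7.83 and 65.1 ± 4.01 in males. A share is a description, with no test.

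**Figure D2:**
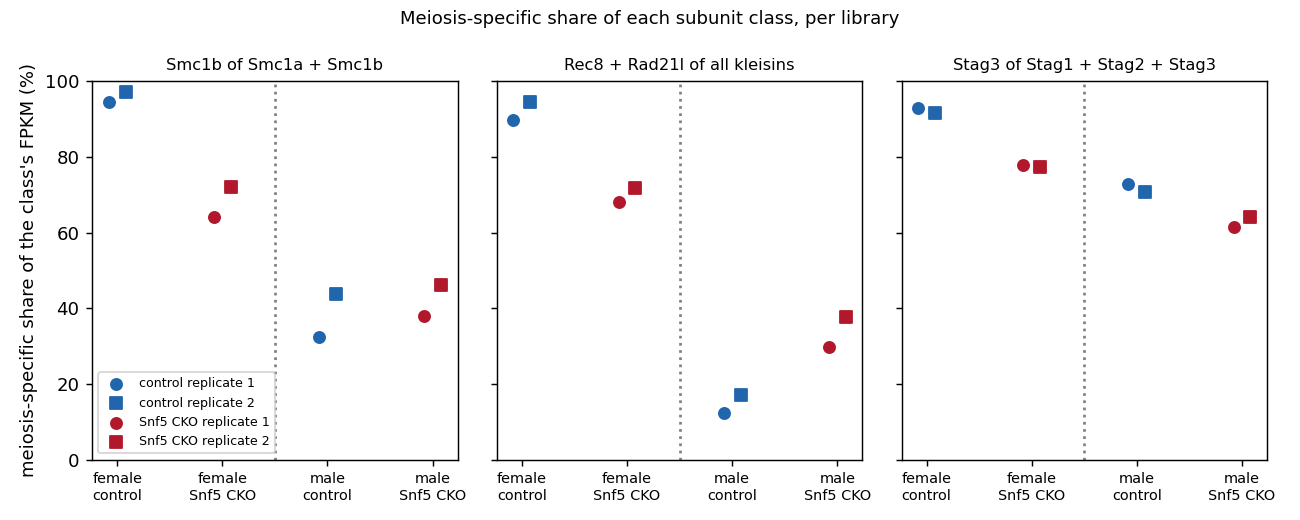
Share of the FPKM of each subunit class held by its meiosis-specific members, in percent, for each library (circles, replicate 1; squares, replicate 2; blue, control; red, Snf5 CKO). In females the shares were between 89.7% and 97.0% in controls and between 64.2% and 77.8% in Snf5 CKO. In males the kleisin share was 12.5% and 17.1% in controls and 29.6% and 37.6% in Snf5 CKO.

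Smc3 (chr19:53600178-53645831 in the female table) is the partner of either SMC1 and the only member with no counterpart in its class. It was at 114 and 105 FPKM in female controls and 79.3 and 67.0 in female Snf5 CKO, a log2 fall of -0.59 ± 0.18 (adjusted p = 0.0273). It no longer passed the test when any single library was left out (adjusted p from 0.0555 to 0.207) and under both rescalings of the libraries (0.0877 and 0.0657). In males Smc3 was at 67.0 and 62.7 FPKM in controls and 56.2 and 50.6 in Snf5 CKO, with a log2 difference of -0.28 ± 0.17 (adjusted p = 0.227, or 0.00767 with the replicate block). Both CKO libraries lay below both controls in each sex, as they did for 45.1% of tested female genes and 40.0% of tested male genes. The difference between the sexes was -0.31 ± 0.21 (adjusted p = 0.278, or 0.0230 with the replicate block).

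The kleisins, which close the ring and are cut by separase, held the largest fall and the largest rise among the 9 subunits in each sex. Rad21l (chr2:151642905-151670640 in the female table), a kleisin of early meiotic prophase, was at 60.7 and 75.1 FPKM in female controls and at 1.997 and 4.48 in female Snf5 CKO. The means were 67.9 ± 10.2 and 3.24 ± 1.76 FPKM (SD, n = 2), a ratio of 21.0 and a log2 fold change of -4.08 ± 0.30 (adjusted p = 0.000131). Among the 9 subunits in either sex, Rad21l in females was the only one for which the authors' confidence bounds of every control library lay apart from those of every CKO library. In males it was at 4.30 and 6.88 FPKM in controls and 0.252 and 0.548 in Snf5 CKO. The male log2 fold change was -2.21 ± 0.26 (adjusted p = 0.00378), and -3.54 with a pseudocount of 0.1 in place of 1. The female effect was larger by 1.87 ± 0.46 in absolute log2 terms (adjusted p = 0.0142), but this no longer passed the test with the pseudocount of 0.1, where the female minus male difference was -0.91 (adjusted p = 0.285), and without female control replicate 2 (-1.71, adjusted p = 0.0513). In the male table an unnamed locus with the same coordinates as Rad21l was listed at 0.577 and 2.48 FPKM in controls and 0.566 and 0 in Snf5 CKO.

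Rec8 (chr14:55618166-55625395), the kleisin that keeps sister chromatids joined until the meiotic divisions, went the other way. It was at 27.4 and 47.1 FPKM in female controls and at 110.5 and 97.9 in female Snf5 CKO, and at 7.21 and 8.59 in male controls, against 23.4 and 30.8 in male Snf5 CKO. Both CKO libraries lay above both controls in each sex, as they did for 36.4% of tested female genes and 34.5% of tested male genes. The log2 rise was 1.50 ± 0.27 in females (adjusted p = 0.00284) and 1.65 ± 0.22 in males (adjusted p = 0.00468). The effect in females minus that in males was -0.15 ± 0.37 (adjusted p = 0.779), so that a difference between the sexes did not pass the test.

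Rad21 (chr15:51962604-51991760 in the female table), the kleisin of mitotic cohesin, rose in females, from 10.2 and 7.02 FPKM in controls to 52.6 and 40.5 in Snf5 CKO. The log2 fold change was 2.32 ± 0.23 (adjusted p = 0.000305), the only general subunit called in either sex. In males Rad21 was at 80.9 and 75.0 FPKM in controls and 56.1 and 52.1 in Snf5 CKO. Both male CKO libraries lay below both controls, as they did for 40.0% of tested male genes. The log2 difference of -0.52 ± 0.17 did not pass the test (adjusted p = 0.0535, or 0.000630 with the replicate block). The genotype effects differed between the sexes by 2.84 ± 0.29, female minus male (adjusted p = 0.000521).

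**Figure D3:**
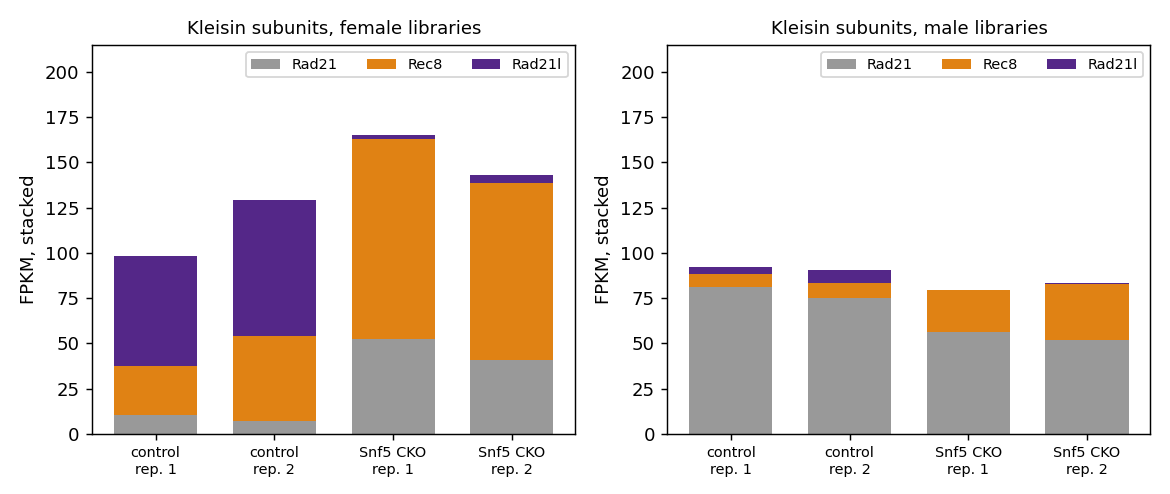
FPKM of Rad21 (grey), Rec8 (orange) and Rad21l (purple) stacked for each of the 4 female (left) and 4 male (right) libraries, on a linear axis. In female controls Rad21l is the largest part, in female Snf5 CKO Rec8 is the largest and Rad21l nearly absent, and in males Rad21 is the largest part in all 4 libraries.

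The kleisins are set out as shares of their summed FPKM, with no test. In female controls Rad21l held 59.9% ± 2.58 of the kleisin FPKM, Rec8 32.2% ± 6.04 and Rad21 7.88% ± 3.46 (SD, n = 2). In female Snf5 CKO Rad21l held 2.17% ± 1.36, Rec8 67.7% ± 1.12 and Rad21 30.1% ± 2.49. In male controls Rad21 held 85.2% ± 3.29 and in male Snf5 CKO 66.4% ± 5.62, and the share of Rec8 was 8.65% ± 1.19 and 33.1% ± 5.38. The summed kleisin FPKM was 98.3 and 129 in female controls and 165 and 143 in female Snf5 CKO, and 92.4 and 90.4 in male controls, against 79.7 and 83.4 in male Snf5 CKO.

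Stag3 (chr5:138280509-138312393), the SA/STAG subunit of meiotic rings, was at 561 and 400.5 FPKM in female controls and 146 and 102 in female Snf5 CKO. The mean fell from 481 ± 114 to 124 ± 30.7 FPKM (SD, n = 2), a log2 fold change of -1.95 ± 0.27 (adjusted p = 0.00108). In males Stag3 was at 123 and 73.4 FPKM in controls and 73.7 and 48.4 in Snf5 CKO. The male groups overlapped, and the log2 difference of -0.66 ± 0.34 did not pass the test (adjusted p = 0.168). Within each male replicate number the CKO library was below its control, an order whose share over all tested genes was not counted. With the replicate block the adjusted p was 0.000406. With single libraries left out, the male log2 value of Stag3 ran from -1.03 to -0.29. The difference between the sexes was -1.29 ± 0.47 (adjusted p = 0.0598, or 3.09e-05 with the replicate block).

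Stag1 and Stag2, the SA/STAG subunits of mitotic rings, passed the test in neither sex. Stag1 (chr9:100597702-100958544 in the female table) was at 34.4 and 29.9 FPKM in female controls and 34.1 and 25.2 in female Snf5 CKO, and at 33.5 and 21.7 in male controls, against 36.6 and 20.2 in male Snf5 CKO. Stag2 (chrX:42148866-42277186 in the female table) was at 8.37 and 6.50 FPKM in female controls and 7.38 and 5.01 in female Snf5 CKO, and at 12.2 and 8.55 in male controls, against 9.49 and 6.93 in male Snf5 CKO. For both genes the 2 groups overlapped in each sex, and replicate 1 was above replicate 2 in all 4 groups. The log2 differences of Stag1 were -0.13 ± 0.20 and 0.012 ± 0.36 (adjusted p = 0.612 and 0.981), and those of Stag2 were -0.24 ± 0.24 and -0.30 ± 0.26 (adjusted p = 0.405 and 0.387, the male value 0.0420 with the replicate block). Stag3 held 92.9% and 91.7% of the SA/STAG FPKM in female controls and 77.8% and 77.2% in female Snf5 CKO, and 72.9% and 70.8% in male controls, against 61.5% and 64.1% in male Snf5 CKO. Its share was thus lower in both CKO libraries than in both controls in each sex.

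**Figure D4:**
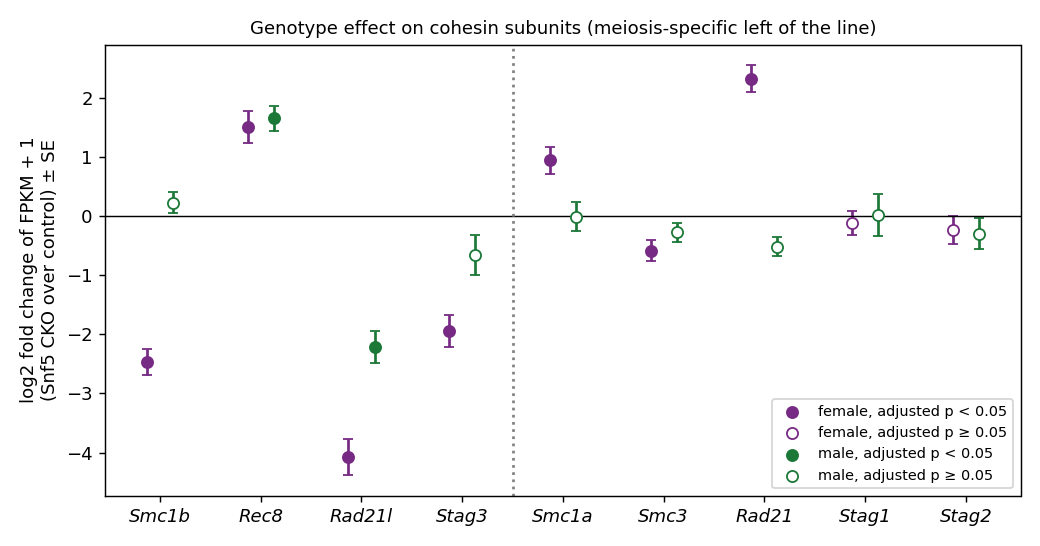
Log2 fold change of FPKM + 1, Snf5 CKO over control, with its standard error, for each subunit in females (purple) and males (green). Filled points passed an adjusted p of 0.05 and open points did not. Smc1b and Rad21 lie far apart between the sexes, and Rec8 is at 1.50 in females and 1.65 in males.

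Of the 9 subunits, 3 had a genotype effect that differed between the sexes (Smc1b, Rad21l and Rad21), against 45.3% of the 10472 genes in that fit. With the replicate block 6 did, the others being Stag3, Smc1a and Smc3. The 45.3% belongs to the fit without the block. The share of all genes with the block is not given, so the count of 6 cannot be set against it. The levels of the subunits themselves are not compared between the sexes here, since the female and male tables were normalized separately.

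The order of the levels within a group shows which subunits dominated. In female controls it ran from Smc1b (511 FPKM) and Stag3 (481) through Smc3 (110.0), Rad21l (67.9), Rec8 (37.3), Stag1 (32.1) and Smc1a (21.8) to Rad21 (8.59) and Stag2 (7.44). The libraries of Smc1b and Stag3 overlapped, as did those of Rec8 and Stag1 and those of Rad21 and Stag2. In female Snf5 CKO the order was Stag3 (124), Rec8 (104), Smc1b (90.5), Smc3 (73.2), Rad21 (46.6), Smc1a (42.4), Stag1 (29.6), Stag2 (6.19) and Rad21l (3.24), with overlap between Stag3 and Rec8 and between Rad21 and Smc1a. In male controls it was Stag3 (98.2), Rad21 (77.9), Smc3 (64.9), Smc1a (38.6), Stag1 (27.6), Smc1b (23.2), Stag2 (10.4), Rec8 (7.90) and Rad21l (5.59), and the pairs that did not overlap were Rad21 and Smc3, Smc3 and Smc1a, Smc1b and Stag2, and Rec8 and Rad21l. In male Snf5 CKO the first 6 places were the same, and Rec8 (27.1) stood beside Smc1b (27.3), with which its libraries overlapped, above Stag2 (8.21) and Rad21l (0.400).

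The genes with the most similar pattern to each meiosis-specific subunit were taken from the 10472 genes tested in both tables, by the root mean square distance of log2 (FPKM + 1), centred on each table, over 8 libraries. For Rad21l they were 1700028K03Rik (0.22), Sycp2 (0.25) and Sycp3 (0.25), the last pair encoding axial elements of the synaptonemal complex. For Smc1b they were Gm4349 (0.12), Serpinf1 (0.13) and 1810043G02Rik (0.13), for Stag3 Phka2 (0.084), Ehbp1 (0.093) and Hps5 (0.095), and for Rec8 Ucp2 (0.089), Cnpy2 (0.10) and Slc23a1 (0.12). Among the members, Smc1b and Stag3 were 0.54 apart and Rad21l and Rec8 2.42 apart. These distances are descriptions and carry no test.

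Neighbouring genes lie close to Smc1b, Stag3, Rec8 and Smc1a. Ribc2 lies 141 bases beyond the start of the Smc1b locus in the female table and was at 3.38 and 1.49 FPKM in female controls and 0.448 and 0.367 in female Snf5 CKO, a log2 fall of -1.23 ± 0.29 (adjusted p = 0.00910). In males Ribc2 also fell, by -1.18 ± 0.20 (adjusted p = 0.00876), from 3.73 and 4.03 FPKM to 0.934 and 1.40, whereas Smc1b did not pass the test there. Gpc2 ends 421 bases before the Stag3 locus in the female table. It fell in females by 1.82 ± 0.40 (adjusted p = 0.00711), from 36.6 and 16.4 FPKM to 8.32 and 4.65, and in males by -1.30 ± 0.22 (adjusted p = 0.00894), from 14.3 and 10.5 FPKM to 4.44 and 4.34. Ipo4 and Tm9sf1, listed as 1 locus, lie 233 bases beyond the end of the Rec8 locus. This locus rose in females by 0.83 ± 0.20 (adjusted p = 0.0103), from 46.6 and 39.4 FPKM to 87.9 and 67.6. In males its difference of -0.41 ± 0.22 did not pass the test (adjusted p = 0.188), whereas Rec8 rose there. The male locus of Ribc1 ends 132 bases before that of Smc1a, and in females the 2 genes share 1 locus. Ribc1 fell in females by 1.49 ± 0.22 (adjusted p = 0.00134), and its male difference of -0.45 ± 0.18 did not pass the test (0.0922). Hsd17b10, 140 bases before that shared female locus, rose in females by 1.33 ± 0.27 (adjusted p = 0.00485). It is not close to Smc1a itself: it ends at base 152004442, and the male Smc1a locus starts at 152016428. The libraries were made without keeping strand, so reads of closely spaced genes on opposite strands are not separated by strand.

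The RNA of axis proteins that bind to meiotic cohesin fell in females. Sycp2 was at 126 and 93.7 FPKM in female controls and 5.20 and 7.71 in female Snf5 CKO, Sycp3 changed by -3.58 ± 0.29 on the log2 scale (adjusted p = 0.000165), and the HORMA domain proteins Hormad1 and Hormad2 had -1.82 ± 0.22 and -1.95 ± 0.18 (adjusted p = 0.000606 and 0.000219). All 4 of these genes were thus called lower in females, as were 21.6% of all tested female genes. In males Sycp2 and Sycp3 were called lower (-2.43 ± 0.22 and -2.49 ± 0.27), Hormad2 rose by 0.92 ± 0.26 (adjusted p = 0.0367), and Hormad1 was at 86.8 and 124 FPKM in controls and 82.2 and 109 in Snf5 CKO (adjusted p = 0.707). In males Hormad2 no longer passed the test with no filter on low values, with a common sum or with linear FPKM (adjusted p = 0.0533, 0.238 and 0.0925). It was also lost without control replicate 2 (log2 value of 0.62) and without Snf5 CKO replicate 1 (0.84).

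Genes that load, release, lock and cut cohesin were followed as a list of 18, of which 17 were tested in females and 16 in males. In females 4 were called lower and 5 higher, and in males 2 lower and 4 higher. Over all tested genes the shares were 21.6% lower and 17.3% higher in females, and 17.4% and 14.4% in males. The loader changed in females: Nipbl was at 25.5 and 22.4 FPKM in controls and 7.60 and 7.01 in Snf5 CKO, a log2 fold change of -1.59 ± 0.18 (adjusted p = 0.000473), and its partner Mau2 at 76.2 and 66.8 and at 20.1 and 19.6 (-1.79 ± 0.17, adjusted p = 0.000242). In males Nipbl was at 9.14 and 8.62 FPKM in controls and 9.33 and 9.36 in Snf5 CKO, and Mau2 at 30.7 and 26.0 and at 21.7 and 20.1 (adjusted p = 0.782 and 0.112, the latter 0.00485 with the replicate block). Both loader genes had effects that differed between the sexes (adjusted p = 0.00115 for Nipbl and 0.00223 for Mau2).

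The factors that lock the ring moved in opposite directions. Esco2, an acetyltransferase of SMC3, fell in females from 299.7 and 284 FPKM to 92.4 and 89.3 (-1.67 ± 0.18, adjusted p = 0.000406), and Esco1, the other SMC3 acetyltransferase, fell by 0.75 ± 0.16 (adjusted p = 0.00620). In males neither passed the test (adjusted p = 0.132 for Esco2, 0.00720 with the replicate block, and 0.754 for Esco1). Cdca5 (sororin), which counters release of the ring by WAPL, rose in females from 10.7 and 10.2 FPKM to 52.4 and 47.3 (2.15 ± 0.17, adjusted p = 0.000147) and in males from 30.1 and 27.3 to 77.1 and 67.4 (1.30 ± 0.17, adjusted p = 0.00479). Hdac8, which removes the acetyl mark from SMC3, rose in females from 1.37 and 1.82 FPKM to 13.6 and 14.2 (2.53 ± 0.19, adjusted p = 0.000144). In males Hdac8 fell by 0.74 ± 0.17 (adjusted p = 0.0231), which no longer passed when any male library was left out (adjusted p from 0.0603 to 0.148), and the effects differed between the sexes by 3.27 ± 0.23, female minus male (adjusted p = 0.000242). The release factor Wapal passed the test in neither sex (adjusted p = 0.618 in females and 0.447 in males, the latter 0.0133 with the replicate block). Its partner Pds5a did not pass either (0.302 and 0.214, or 0.0292 and 0.00125 with the block), and Pds5b, the other partner, rose in both sexes, by 1.11 ± 0.26 in females (adjusted p = 0.00911) and 0.99 ± 0.28 in males (adjusted p = 0.0378). The male value of Pds5b no longer passed the test with no filter on low values, with a common sum or with linear FPKM (adjusted p = 0.0598, 0.203 and 0.104). It was also lost without control replicate 2 (log2 value of 0.77) and without Snf5 CKO replicate 1 (0.73). The female value did not pass with linear FPKM (adjusted p = 0.0603).

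**Figure D5:**
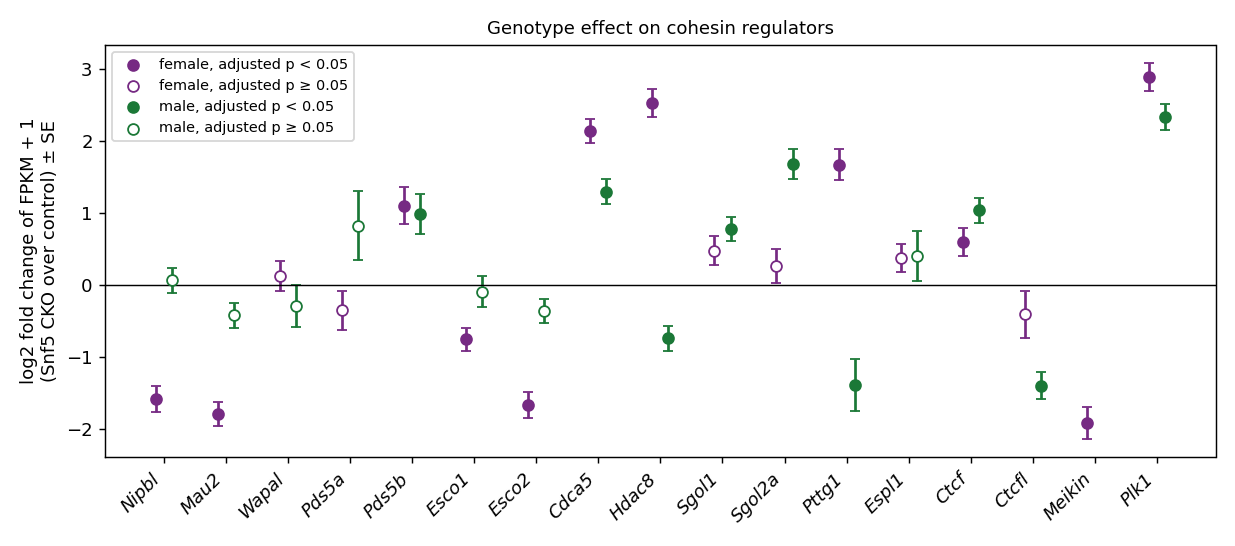
Log2 fold change of FPKM + 1, Snf5 CKO over control, with its standard error, for 17 cohesin regulators in females (purple) and males (green). Filled points passed an adjusted p of 0.05. Nipbl, Mau2, Esco1 and Esco2 are filled below 0 in females only, Hdac8 and Pttg1 are filled with opposite signs in the sexes, and Meikin has a female value only.

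Cleavage and protection showed the same mixture. Pttg1 (securin), the inhibitor of separase, rose in females from 24.8 and 35.2 FPKM to 88.6 and 106 (1.68 ± 0.22, adjusted p = 0.000831) and fell in males from 304 and 484 to 114 and 187 (-1.39 ± 0.36, adjusted p = 0.0303), and the effects differed between the sexes (adjusted p = 0.00182). Its male call was lost without control replicate 2 (adjusted p = 0.0886) and without Snf5 CKO replicate 1 (0.109). Plk1, a mitotic kinase that promotes removal of cohesin from chromosome arms, rose by 2.89 ± 0.19 in females and 2.34 ± 0.18 in males (adjusted p = 0.000105 and 0.00221). Sgol2a, a protector of centromeric cohesin, rose in males from 21.8 and 18.5 FPKM to 75.9 and 58.1 (1.68 ± 0.21, adjusted p = 0.00414) and was at 29.7 and 19.7 in female controls and 32.9 and 26.2 in female Snf5 CKO (adjusted p = 0.358). Sgol1, the mitotic shugoshin, rose in males by 0.79 ± 0.17 (adjusted p = 0.0172), which was lost when any male library was left out (adjusted p from 0.0676 to 0.115), and did not pass in females (0.0689, or 0.0183 with the replicate block). Meikin, a meiotic kinetochore factor, was at 3.95 and 2.72 FPKM in female controls and 0.226 and 0.0596 in female Snf5 CKO (-1.91 ± 0.22, adjusted p = 0.000519), and was not analysed here in males. Ctcf, which halts cohesin at chromatin boundaries, rose in females by 0.60 ± 0.19 (adjusted p = 0.0315) and in males by 1.04 ± 0.18 (adjusted p = 0.00893), and after rescaling to a common sum it passed in neither (0.0906 and 0.152). Without female control replicate 2 or female Snf5 CKO replicate 1 its female value did not pass either (0.143 and 0.189). Its germline paralogue Ctcfl fell in males by 1.40 ± 0.19 (adjusted p = 0.00478). Espl1 (separase) passed the test in neither sex (adjusted p = 0.132 in females and 0.375 in males, or 0.0162 and 0.00271 with the replicate block).

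The other SMC complexes, which fold or repair chromosomes, changed in both directions. Their counts stand beside shares over all tested genes of 21.6% called lower and 17.3% higher in females, and 17.4% and 14.4% in males. Of 8 condensin genes, 2 were called lower in females (Ncapg, -1.05, and Ncapg2, -1.07). In males 1 was called lower (Ncapd3, -1.58) and 2 higher (Smc2, 1.16, and Ncaph2, 1.47). The male call of Smc2 was lost after rescaling to a common sum (0.99, adjusted p = 0.0902), and that of Ncapd3 with linear FPKM (adjusted p = 0.0673). Of 6 genes of the SMC5/6 complex, 1 was called lower (Smc6, -1.18) and 2 higher (Nsmce1, 1.41, and Nsmce4a, 2.19) in females, and 1 higher (Nsmce4a, 2.56) in males. Cycling-cell genes were mostly higher in Snf5 CKO beside the general subunits: 5 of 8 were called higher in females, where Ccnb1 rose from 13.6 and 11.7 FPKM to 248 and 251 and Aurkb from 0.945 and 1.54 to 39.8 and 40.7, and 6 of 8 were called higher in males. In females Top2a, another gene of dividing cells, fell by 0.90 ± 0.19 (adjusted p = 0.00549). The median log2 fold change of the 8 cycling-cell genes was 1.84 in females and 1.60 in males, where that of the general subunits was -0.13 and -0.28.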

How the data were processed

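RNA was prepared by the authors with SMART-Seq v4 and Nextera XT and sequenced on Illumina HiSeq or NextSeq instruments. The submitters' notes name TopHat2 2.2.1, Cuffdiff 2.1.1 and mm10, and the study's methods give other version numbers. The deposited tables, one per sex, hold the authors' FPKM per locus and library with confidence bounds and a quantification status, which was OK for all members. No total counts are in them, so depth is unknown and intervals for counting error are not given. In values under 0.1 FPKM the most frequent log2 ratio to control replicate 1 lay between -1.28 and 0.08. That ratio held only 8.6% to 23.7% of these loci, and the second most frequent lay between -1.26 and 0.68. Relative depth is thus not settled by these ratios, which are a rough guide at most. FPKM summed to between 673741 and 1554760 per library, of which loci without a name held 5.46% to 42.1%.

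A gene was represented by the row with the highest mean FPKM, and starts were counted from 1. The 4 libraries of a sex were fitted with limma 3.58.1 (R 4.3.3) on log2(FPKM + 1), with a trend in eBayes, two-sided, for genes averaging 1 FPKM or more, with Benjamini-Hochberg adjustment over all tested genes. The difference between sexes was an interaction term over 8 libraries. The script was tested on simulated data with independent noise of the same size for every gene. That setting differs from these libraries, so it does not bear on false calls here. With 2 against 2 an exact permutation test cannot go below p = 0.333 and was not used. Replicate numbers were taken as a shared batch, from the run names in the labels and, in males only, the column names. A shared batch is not stated outright, so the replicate block rests on this reading. The deviations of same-numbered libraries from their group means correlated across genes at 0.500 in females and 0.607 in males. Promoters came from the RefSeq table for GRCm38.p6. Figures were drawn with matplotlib. Named were all members, the cohesin regulators called or with a known role, axis partners, called genes of the other lists, and the 3 genes nearest to each meiosis-specific subunit. The members and lists were chosen with earlier results of these data known.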

Additional observations from a re-analysis of the deposited data

Results flagged for a closer look

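The genotype effect differed between the sexes, by the interaction term of limma, for 3 of the 9 subunits. For Rad21 the log2 fold change in females minus that in males was 2.84, from a rise of 2.32 in females and a value of -0.52 in males that did not pass its own test. For Smc1b it was -2.70, from -2.47 in females and 0.22 in males. For Rad21l it was -1.87, from -4.08 in females and -2.21 in males, and this difference did not hold with a pseudocount of 0.1 (-0.91, adjusted p = 0.285). Across the 10472 genes of that fit, 45.3% had a difference at an adjusted p under 0.05.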

How the results depend on the processing

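With 2 libraries a group the spread is borrowed from other genes, and levels near 0 depend on the pseudocount. No subunit past the threshold reversed under the alternatives tried, which were 2 rescalings, a pseudocount of 0.1, filters at 0 or 5 FPKM, no trend, linear FPKM, summed rows, the replicate block and each library left out. A mean of at least 5 FPKM gave 1347 male genes called lower against 2141, 0 subunits called lower in males (Rad21l was not tested there) and 1 male regulator called lower against 2, as linear FPKM also did (1). Leaving out libraries gave 1 to 2 male regulators called lower. The replicate block gave 6 subunits with a difference between sexes against 3, and it changed no subunit's side of the threshold in females. In males the block brought Smc1b, Stag3, Smc3, Rad21 and Stag2 past the threshold (adjusted p = 0.0341, 0.000406, 0.00767, 0.000630 and 0.0420). The shares of all genes passing with the block are not given, so these counts have no background beside them. Median-of-ratios rescaling moved the median of all tested genes from -0.13 to 0.020 in females and from -0.072 to 0.074 in males, and rescaling to a common sum to -0.26 in males, where 2702 genes were then called lower and 1381 higher against 2141 and 1763.

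Values that changed sign had not passed the test. With median-of-ratios rescaling these were Stag1 in females (0.033) and, in males, Smc1a (0.14), Esco1 (0.061) and Hormad1 (0.029). With a common sum they were Stag1 (-0.17) and Nipbl (-0.11) in males and the differences between sexes of Rec8 (0.036) and Stag1 (0.064). With single libraries left out, log2 values ran from -0.34 to 0.087 for Stag1, -0.055 to 0.31 for Wapal, -0.016 to 0.55 for Sgol2a and -0.71 to 0.011 for Pds5a in females. In males they ran from -0.40 to 0.42 for Stag1, -0.27 to 0.24 for Smc1a, -0.38 to 0.12 for Hormad1, -0.61 to 0.027 for Wapal and -0.30 to 0.12 for Esco1. The differences between sexes ran from -0.52 to 0.23 for Rec8, -0.55 to 0.28 for Stag1 and -0.18 to 0.30 for Stag2. Other named genes no longer passed the test in 19 cases under settings that kept all libraries and in 16 with a library left out. The cause was not tested.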
